A study of Homo sapiens with 36 samples.

Results

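CENPA, HJURP, MIS18A and OIP5, which encode the centromeric histone CENP-A and the factors that place it, were followed in 2 neuroblastoma cell lines after siRNA-mediated depletion of the histone deacetylase HDAC11. The members were all probes of the array whose annotated symbol was one of these 4 names. This rule took 7 of 47323 probes, 2 each for CENPA, MIS18A and OIP5 and 1 for HJURP, and 4 of 20045 named genes. BE(2)-C and IMR-32 are established cell lines with amplified MYCN, BE(2)-C having been derived from a bone marrow metastasis, so that each stands for a single tumour. Cells of both lines received HDAC11 siRNA no. 1, a second one (HDAC11 siRNA no. 2) or a negative control siRNA, each by the same lipid reagent, and were harvested after 42, 48 and 54 h. Each of these 18 groups had 2 replicates, so that there were 36 arrays, 12 of them controls. The series calls the replicates biological but does not say that they came from separate thaws or passages, and the spread between them measures only what differed between these cultures.

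CENP-A replaces histone H3 in the nucleosomes of the centromere, where the kinetochore is built, and is shared out between the sister chromatids when DNA is replicated. New CENP-A is placed only after mitosis, when the Mis18 complex, which holds MIS18A and OIP5 (also called MIS18B), licenses the centromere and the chaperone HJURP delivers the histone. The transcripts of CENPA and HJURP are made mainly in G2, and their overexpression is common in proliferating tumours. The comparison of each HDAC11 siRNA with the negative control asked whether the messages of this machinery changed when HDAC11 was depleted.

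Genes that are transcribed in G2 often carry CCAAT boxes and a cell cycle homology region (CHR) just before their start, and genes of S phase often carry E2F sites. The 250 bases upstream of the annotated start were searched on both strands for CCAAT, for the CHR letters TTTGAA and the variants TTCGAA and TTTAAA, and for the E2F letters TTTCCCGC, TTTGGCGC, TTTGCCGC and TTTCGCGC. Of the 4 members, MIS18A had no upstream sequence in the RefSeq table used (build GRCh38.p14). The sequences of the other 3 members were there and are all shown. They run 5′ to 3′ on the strand of the gene, and capitals mark the matches, with ATTGG standing for CCAAT on the other strand.
CENPA, chr2:26785806-26786055, plus strand: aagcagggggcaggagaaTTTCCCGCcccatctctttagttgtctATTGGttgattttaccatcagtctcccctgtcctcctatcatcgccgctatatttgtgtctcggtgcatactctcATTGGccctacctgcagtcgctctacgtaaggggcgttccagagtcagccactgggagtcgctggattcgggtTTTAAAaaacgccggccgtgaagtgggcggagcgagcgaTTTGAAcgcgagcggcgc
HJURP, chr2:233854536-233854785, minus strand: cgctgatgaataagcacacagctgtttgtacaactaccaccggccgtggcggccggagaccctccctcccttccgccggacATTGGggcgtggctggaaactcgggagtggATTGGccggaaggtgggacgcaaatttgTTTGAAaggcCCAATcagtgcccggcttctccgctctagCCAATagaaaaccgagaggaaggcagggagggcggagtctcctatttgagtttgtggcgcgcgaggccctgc
OIP5, chr15:41332592-41332841, minus strand: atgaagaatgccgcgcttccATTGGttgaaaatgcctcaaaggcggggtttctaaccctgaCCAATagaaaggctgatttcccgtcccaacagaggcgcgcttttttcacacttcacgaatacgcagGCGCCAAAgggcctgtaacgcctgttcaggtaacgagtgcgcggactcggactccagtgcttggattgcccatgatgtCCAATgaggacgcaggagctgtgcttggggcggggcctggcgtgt
The CENPA stretch held TTTGAA from 18 bases before the start, the variant TTTAAA from 57 bases before it, 2 CCAAT boxes and the E2F letters TTTCCCGC. The HJURP stretch held TTTGAA from 111 bases before the start and 4 CCAAT boxes. The OIP5 stretch held 3 CCAAT boxes and the E2F letters TTTGGCGC on the other strand, and no CHR letters. Among 35116 RefSeq promoter windows of this length, 13.3% held TTTGAA, 11.3% TTTAAA, 32% at least 1 CCAAT, 9.53% at least 2 CCAAT and 2.79% any of the E2F letters. A match in these letters is a description of the sequence and not a bound site.

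HDAC11 itself was read by a single probe that was detected on 2 of 12 control arrays and on 0 of 24 HDAC11 siRNA arrays, with signals of 89 to 138. Its averaged log2 changes of -0.07 and -0.03 in BE(2)-C and of -0.09 and -0.08 in IMR-32 (siRNA no. 1 and siRNA no. 2, limma adjusted p of 0.641, 0.925, 0.425 and 0.596) therefore do not check the labels, and the depletion is known only from the study's separate measurements. Per array, 36.1% to 41.8% of the probes were detected, and replicate arrays correlated at r = 0.985 to 0.994. The cells had the transcripts of their labelled type, since all 8 measured adrenergic neuroblastoma markers, among them PHOX2A, HAND2 and TH, were detected on every BE(2)-C array and 6 of the 8 on every IMR-32 array. Of 10 mesenchymal and fibroblast markers, 4 were also detected on every BE(2)-C array (DCN, LUM, SNAI2 and THY1). On every IMR-32 array, 2 were detected (SNAI2 and THY1). FN1 was detected on no array, nor were COL1A2 and COL3A1 in BE(2)-C or CD44, DCN and PRRX1 in IMR-32. Of the member probes, 6 of the 7 were detected on all 36 arrays and the dimmer MIS18A probe on 35.

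CENPA fell in both lines with both HDAC11 siRNAs, and it fell further with siRNA no. 1. In BE(2)-C cells, the brighter CENPA probe had normalised intensities of 311 and 213 at 42 h, 254 and 188 at 48 h and 238 and 202 at 54 h after siRNA no. 1. After siRNA no. 2, the same probe had 627 and 592 at 42 h, 649 and 628 at 48 h and 686 and 561 at 54 h. Negative control cells had 893 and 978 at 42 h, 1091 and 945 at 48 h and 983 and 1092 at 54 h. The 3 sets of arrays did not overlap, and the order of siRNA no. 1, siRNA no. 2 and control was the same at each time. Averaged over the times, CENPA fell by 2.11 ± 0.09 on the log2 scale (SE, limma adjusted p = 7.95e-14) with siRNA no. 1, to 23.2% of control, and the change ranked 7 from the lowest of 47320 probes. With siRNA no. 2 it fell by 0.68 ± 0.07 (limma adjusted p = 7.47e-07), to 62.6% of control. No background was subtracted, and after siRNA no. 1 this probe had a median of 225 over a mean background of 108.

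In IMR-32, the brighter CENPA probe had intensities of 359 and 618 at 42 h, 272 and 353 at 48 h and 323 and 497 at 54 h after siRNA no. 1. After siRNA no. 2, it had 655 and 809 at 42 h, 666 and 620.1 at 48 h and 626 and 748 at 54 h. Negative control cells had 968 and 1027 at 42 h, 847 and 874 at 48 h and 1101 and 1092 at 54 h. All HDAC11 siRNA arrays lay below all control arrays, but the highest array after siRNA no. 1, replicate 2 at 42 h, lay next to the lowest array after siRNA no. 2. The averaged change was -1.34 ± 0.10 on the log2 scale with siRNA no. 1 (limma adjusted p = 5.50e-13), or 39.6% of control, and ranked 6 from the lowest. With siRNA no. 2 the change was -0.52 ± 0.06 (limma adjusted p = 3.24e-07), or 69.8% of control. The dimmer CENPA probe fell in the same 4 comparisons, by 1.26 and 0.52 in BE(2)-C and by 1.01 and 0.39 in IMR-32 (siRNA no. 1 and siRNA no. 2). It lay closer to the background of about 105 to 109 intensity units, since its medians after siRNA no. 1 were 170.2 in BE(2)-C and 191 in IMR-32, against 415 and 407 in control cells of these lines. In BE(2)-C cells its highest value after siRNA no. 2 and its lowest control value were both 337 when rounded. Both siRNAs of a cell line were set against the same 6 control arrays, so that their values are not independent. The arrays measured bulk RNA, in which fewer cells that express a gene and less of its RNA per cell cannot be told apart.

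**Figure D1:**
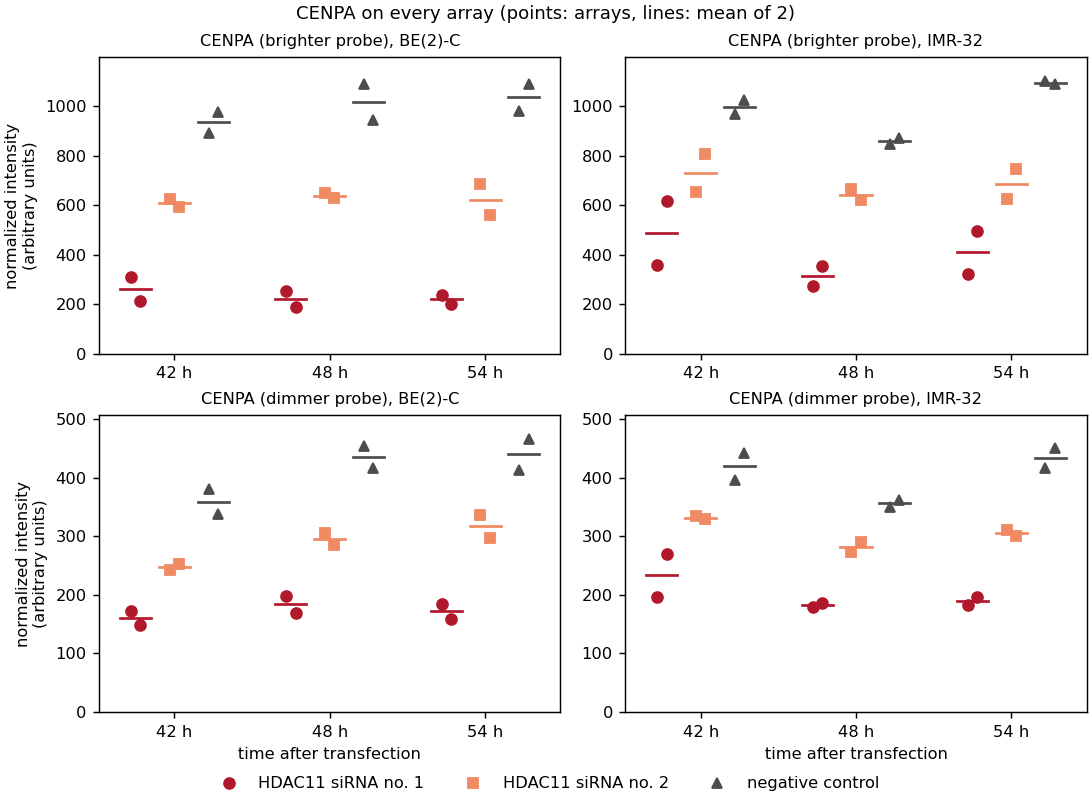
Normalised intensity of the brighter and dimmer CENPA probes (y axes, arbitrary units) on each of the 36 arrays at 42, 48 and 54 h after transfection (x axis) in BE(2)-C and IMR-32. Points are single arrays of HDAC11 siRNA no. 1, HDAC11 siRNA no. 2 and negative control siRNA and horizontal bars are means of 2 replicates, and all HDAC11 siRNA arrays lie below the control arrays of their cell line, for the brighter probe with medians of 225 (siRNA no. 1) and 628 (siRNA no. 2) against 980.5 (control) in BE(2)-C cells.

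HJURP, the chaperone that carries CENP-A to the centromere, fell with both siRNAs in both lines. Its lowest, median and highest intensities in BE(2)-C were 516, 622 and 742 after siRNA no. 1 and 535, 697 and 720.1 after siRNA no. 2, against 813, 929.5 and 972 in control cells. In IMR-32, they were 312, 361 and 474 after siRNA no. 1 and 501, 544 and 601 after siRNA no. 2, against 680.2, 723 and 799 in control cells. Neither siRNA's arrays overlapped the control arrays in either line, while the arrays of both siRNAs overlapped each other in BE(2)-C and not in IMR-32. The averaged log2 changes were -0.55 ± 0.07 and -0.44 ± 0.07 in BE(2)-C cells (siRNA no. 1 and siRNA no. 2, limma adjusted p of 1.32e-06 and 2.37e-04). They were -0.98 ± 0.06 and -0.40 ± 0.06 in IMR-32 (limma adjusted p of 4.84e-14 and 1.47e-05).

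OIP5, the Mis18 complex subunit that binds MIS18A, fell with siRNA no. 1 in both lines, and with siRNA no. 2 its change was small. The lowest, median and highest intensities of its brighter probe in BE(2)-C cells were 594, 649 and 733 after siRNA no. 1 and 1093, 1319 and 1452 after siRNA no. 2, against 1343, 1489 and 1757 in control cells. In IMR-32 they were 477, 511 and 679.9 after siRNA no. 1 and 800.2, 864 and 945 after siRNA no. 2, against 987, 1021 and 1089.6 in control cells. The arrays after siRNA no. 2 overlapped the control arrays in BE(2)-C and lay below them in IMR-32. With siRNA no. 1 the brighter probe fell by 1.19 in BE(2)-C and by 0.96 in IMR-32 on the log2 scale (limma adjusted p of 2.89e-11 and 4.84e-14), and the dimmer probe fell by 0.90 and by 0.79. With siRNA no. 2 the changes of the brighter probe were -0.22 in BE(2)-C cells (95% interval -0.37 to -0.07, limma adjusted p = 0.0560) and -0.23 in IMR-32 (limma adjusted p = 0.00448). The dimmer probe changed by -0.24 and -0.13 with siRNA no. 2 and did not pass in either line (limma adjusted p of 0.117 and 0.255). Without the control array of replicate 2 at 54 h, both OIP5 probes passed with siRNA no. 2 in BE(2)-C cells, at -0.29 and -0.34 (limma adjusted p of 0.00460 and 0.00177). OIP5-AS1, a non-coding RNA gene that overlaps OIP5 in the RefSeq annotation, has a probe of its own. It changed by 0.11 and 0.16 in BE(2)-C cells and by -0.66 and -0.17 in IMR-32 (siRNA no. 1 and siRNA no. 2), and only the change of -0.66 passed (limma adjusted p = 5.09e-09).

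MIS18A, which forms the centromere-binding core of the complex with OIP5, fell in IMR-32 with siRNA no. 1 and did not pass in the other 3 comparisons. In IMR-32, the lowest, median and highest intensities of its brighter probe were 482, 507 and 579 after siRNA no. 1 and 654, 743 and 783 after siRNA no. 2, against 665, 761 and 825 in control cells. In BE(2)-C cells, they were 517, 588 and 768 after siRNA no. 1 and 570.0, 669 and 761 after siRNA no. 2, against 523, 641 and 859 in control cells. Thus all groups of BE(2)-C cells overlapped, and in IMR-32 the arrays after siRNA no. 1 alone lay below the controls. The averaged change in IMR-32 with siRNA no. 1 was -0.55 ± 0.06 on the log2 scale (limma adjusted p = 4.82e-09) for the brighter probe and -0.25 ± 0.06 (limma adjusted p = 0.00334) for the dimmer one. In BE(2)-C cells, the brighter probe changed by -0.10 with siRNA no. 1 (95% interval -0.26 to 0.07, limma adjusted p = 0.576) and by 0.08 with siRNA no. 2 (-0.09 to 0.25, limma adjusted p = 0.732). With siRNA no. 2 in IMR-32 it changed by -0.04 (-0.17 to 0.08, limma adjusted p = 0.828). The dimmer MIS18A probe overlapped the controls in all 4 comparisons and had group medians between 262 and 336.

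**Figure D2:**
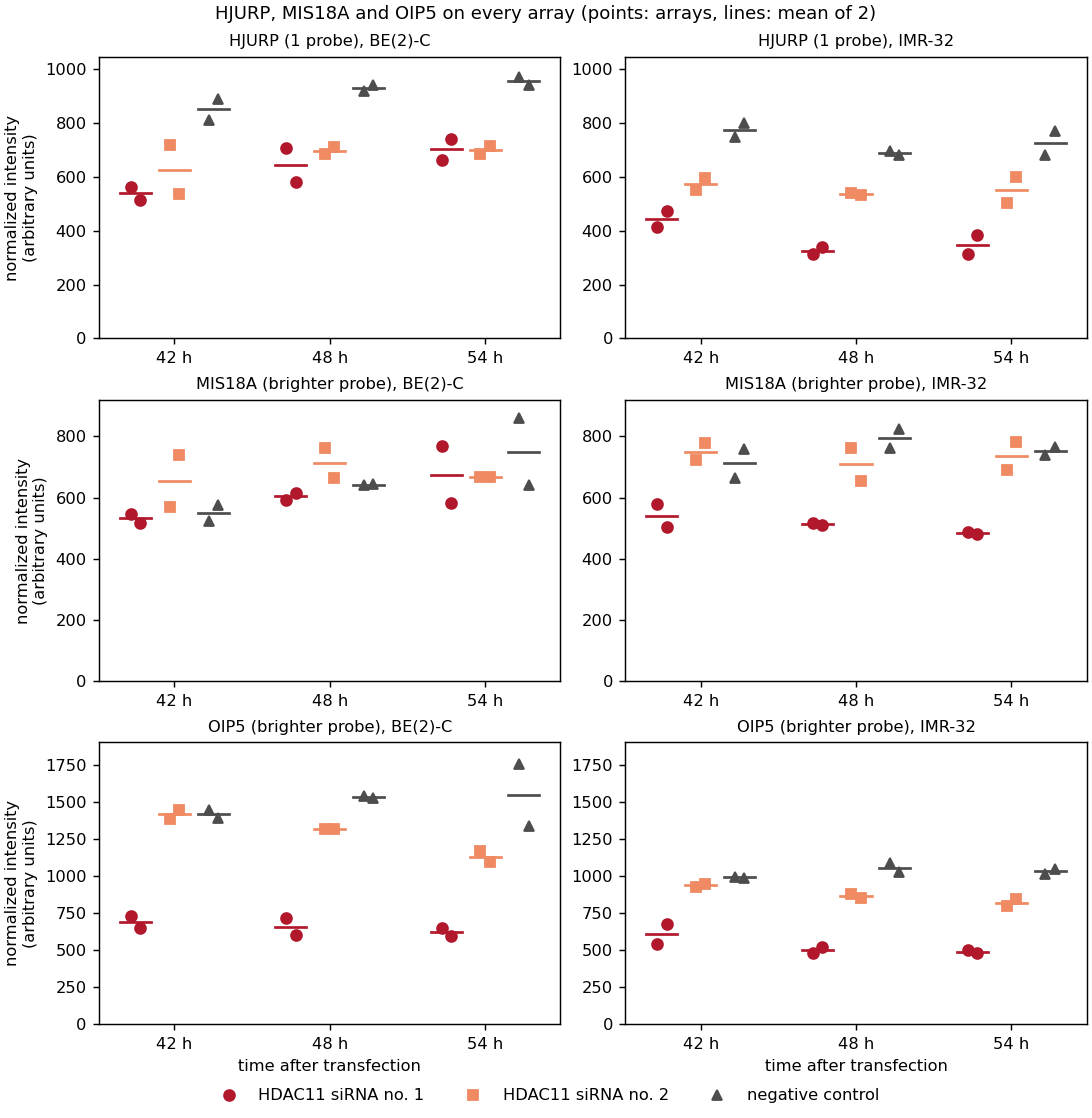
Normalised intensity of the HJURP probe and of the brighter MIS18A and OIP5 probes (y axes, arbitrary units) on each array at 42, 48 and 54 h (x axes) in BE(2)-C and IMR-32. Points are single arrays of HDAC11 siRNA no. 1, HDAC11 siRNA no. 2 and negative control siRNA, bars are means of 2 replicates, and the MIS18A arrays of BE(2)-C cells overlap between all 3 siRNAs whereas the HJURP arrays of both HDAC11 siRNAs lie below the controls.

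Over the 7 member probes, those lower at an adjusted p under 0.05 were 5 in BE(2)-C cells after siRNA no. 1 and 3 after siRNA no. 2. In IMR-32 they were 7 after siRNA no. 1 and 4 after siRNA no. 2, and no member probe was called higher in these 4 comparisons. Of all 47320 probes tested, 7.5% and 4.58% were lower in BE(2)-C and 7.35% and 4.36% in IMR-32 at the same threshold (siRNA no. 1 and siRNA no. 2), and 8.27%, 4.24%, 8.35% and 3.83% were higher in the same order. The members whose 6 siRNA arrays all lay below the 6 control arrays were 5, 3, 6 and 4 of 7 in these comparisons, against 4.1%, 2.23%, 4.63% and 2.57% of all probes. CENPA, by both of its probes, and HJURP met both criteria in each comparison, OIP5 in some and MIS18A in 1. The study's rule for a regulated transcript asked for a call at 2 or more times with both siRNAs in the same direction. In BE(2)-C cells it took both CENPA probes, and in IMR-32 the brighter CENPA probe and HJURP, all lower, while 0.296% and 0.251% of all probes met it as lower in these lines. With median scaling, normexp background correction or a threshold of 0.01, 0 member probes met the rule in IMR-32, and with normexp or at 0.01, 1 met it in BE(2)-C cells.

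**Figure D3:**
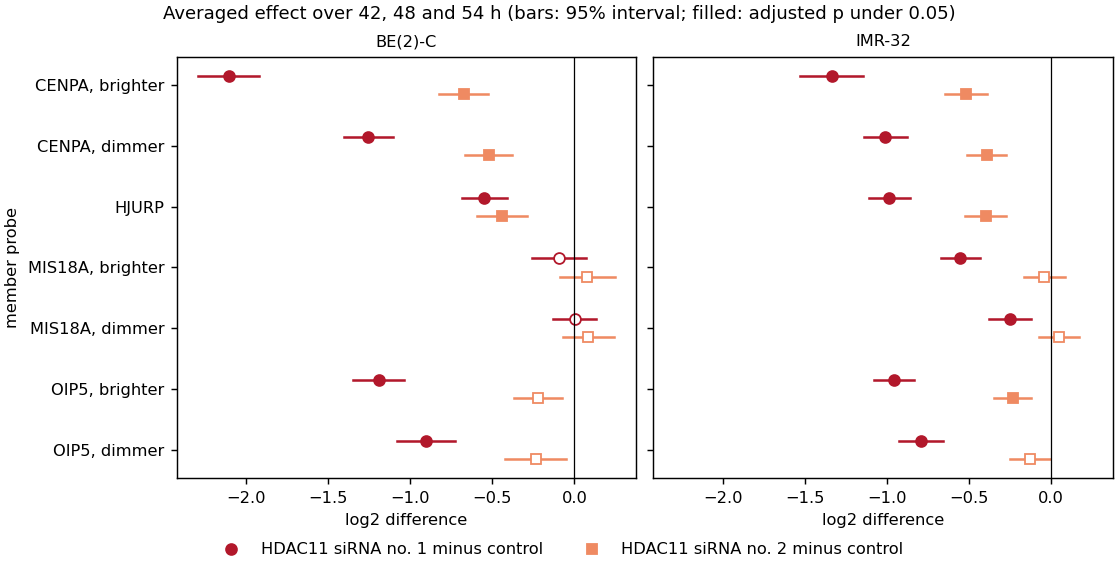
Averaged log2 change (x axis, siRNA minus negative control over 42, 48 and 54 h) of the 7 member probes with 95% intervals (bars, not adjusted for multiple testing) for each HDAC11 siRNA in each cell line, filled where the adjusted p was under 0.05. CENPA with siRNA no. 1 lies farthest from 0, at -2.11 in BE(2)-C and -1.34 in IMR-32 for the brighter probe, and the MIS18A intervals include 0 in all comparisons but that of siRNA no. 1 in IMR-32.

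Set directly against each other over their 12 arrays per line, the siRNAs differed for CENPA and OIP5 in both lines. In BE(2)-C cells, siRNA no. 1 minus siRNA no. 2 was -1.43 ± 0.09 on the log2 scale for the brighter CENPA probe (limma adjusted p = 4.42e-13) and -0.97 ± 0.07 for the brighter OIP5 probe (limma adjusted p = 3.07e-12). HJURP did not pass there, with a difference of -0.11 (95% interval -0.26 to 0.04, limma adjusted p = 0.415), nor did MIS18A at -0.17 (-0.33 to -0.02, limma adjusted p = 0.120). In IMR-32, all 7 member probes were lower after siRNA no. 1 than after siRNA no. 2, by 0.30 for the dimmer MIS18A probe up to 0.82 for the brighter CENPA probe. Lower calls made up 9.55% of all probes in BE(2)-C and 8.89% in IMR-32 in these direct comparisons. Both siRNAs target HDAC11, and the labels give no measure of how far each depleted it on these arrays.

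The effect of siRNA no. 1 differed between the cell lines for 3 members, in opposite directions. CENPA fell further in BE(2)-C than in IMR-32, the difference of the averaged effects (BE(2)-C minus IMR-32) being -0.77 ± 0.14 for the brighter probe (95% interval -1.06 to -0.49, limma adjusted p = 8.68e-05). HJURP fell less in BE(2)-C than in IMR-32, with a difference of 0.44 ± 0.10 (0.24 to 0.63, limma adjusted p = 0.00153). MIS18A, by its brighter probe, likewise had a difference of 0.46 ± 0.10 (0.25 to 0.66, limma adjusted p = 0.00159). The dimmer CENPA and MIS18A probes lay on the same side, at -0.25 and 0.26, and did not pass (limma adjusted p of 0.117 and 0.0852). The OIP5 probes gave -0.24 and -0.11 (limma adjusted p of 0.115 and 0.721). Differences of this kind were called lower for 4.06% and higher for 3.98% of all probes. For siRNA no. 2, no member passed, the adjusted p by limma being 0.659 or above. Of all probes, 1.55% were called lower and 1.44% higher for this siRNA. An unadjusted p under 0.05 was reached by 0 of 7 member probes and by 12.6% of all probes. The IMR-32 array of siRNA no. 1 with the highest CENPA value, replicate 2 at 42 h, enters the CENPA value, and without it the difference was -0.64 (limma adjusted p = 5.74e-04).

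**Figure D4:**
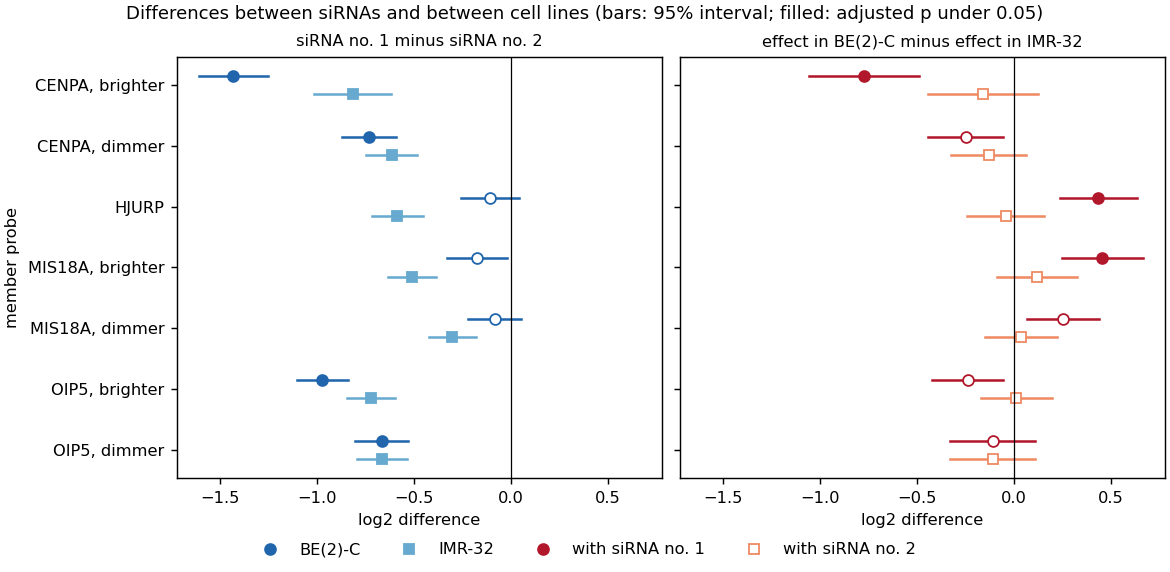
Differences of averaged log2 effects with 95% intervals (bars, not adjusted for multiple testing) for the 7 member probes, as siRNA no. 1 minus siRNA no. 2 within each cell line and as BE(2)-C minus IMR-32 for each siRNA (x axes), filled where the adjusted p was under 0.05. CENPA lies left of 0 at -0.77 in the comparison of the cell lines for siRNA no. 1, while HJURP at 0.44 and MIS18A at 0.46 lie right of it.

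CENPA was already low at the first time measured. With siRNA no. 1, the log2 changes of the brighter probe at 42, 48 and 54 h were -1.86, -2.22 and -2.24 in BE(2)-C and -1.08, -1.47 and -1.45 in IMR-32, and they passed at each time. With siRNA no. 2, they were -0.62, -0.67 and -0.74 in BE(2)-C and -0.45, -0.42 and -0.68 in IMR-32, again passing at each time. Of 12 fits that each left out 1 array, the calls of siRNA no. 2 were lost in 2, 2 and 1 in BE(2)-C and in 3, 4 and 0 in IMR-32. HJURP changed by -0.66, -0.54 and -0.45 in BE(2)-C and by -0.81, -1.08 and -1.06 in IMR-32 with siRNA no. 1 and passed at each time, although the BE(2)-C calls at 48 and 54 h were lost in 1 and 2 of 12 such fits. With siRNA no. 2, HJURP was at -0.45, -0.42 and -0.45 in BE(2)-C cells, where the value at 54 h alone passed (limma adjusted p = 0.0476), and at -0.43, -0.36 and -0.40 in IMR-32, where 42 and 54 h passed, with losses in 4 and 2 of 12 such fits. The brighter OIP5 probe after siRNA no. 2 was at 0.00, -0.22 and -0.44 in BE(2)-C and at -0.08, -0.29 and -0.33 in IMR-32, passing at 54 h in both (limma adjusted p of 0.0467 and 0.0478). These calls were lost in 11 of 12 fits without 1 array in BE(2)-C and in 12 of 12 in IMR-32, and the HJURP call at 54 h in BE(2)-C cells in 10 of 12. Counting each probe at each time, 15 of 21 values in BE(2)-C and 19 of 21 in IMR-32 passed as lower after siRNA no. 1, and the numbers for siRNA no. 2 were 8 and 7. Lower calls at the 3 times made up 3.48%, 3.82% and 4.42% of all probes in BE(2)-C cells for siRNA no. 1 and 0.976%, 1.26% and 1.98% for the second siRNA. In IMR-32 they made up 3.19%, 4.04% and 4.11% for siRNA no. 1 and 0.799%, 1.13% and 2.15% for the second siRNA. When the effect at 54 h was set against that at 42 h, limma called 0 of the 7 member probes and 0 of 47320 probes in all 4 comparisons. The member probes with an unadjusted p under 0.05 were both OIP5 probes in BE(2)-C cells with siRNA no. 2, at -0.44 and -0.47, and the dimmer CENPA and brighter OIP5 probes in IMR-32 with siRNA no. 1, at -0.34 and -0.37. Over all probes, 4.95% to 5.30% had such a p in these comparisons, and 2 replicates per time leave wide intervals, for instance -0.84 to 0.08 for CENPA in BE(2)-C cells with siRNA no. 1.

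In negative control cells, the loading factors of CENP-A differed between the lines, and for CENPA no difference passed. BE(2)-C minus IMR-32 was 0.02 for the brighter CENPA probe (95% interval -0.11 to 0.15, limma adjusted p = 0.882) and 0.03 for the dimmer one. OIP5 was higher in BE(2)-C cells by 0.54 and 0.49 (limma adjusted p of 4.24e-07 and 6.02e-05), and HJURP by 0.32 (limma adjusted p = 1.57e-04). The HJURP call was lost when arrays were scaled to their medians, at 0.17 (limma adjusted p = 0.0742), where the brighter CENPA probe stood at -0.12. MIS18A was lower in BE(2)-C cells, with differences of -0.23 and -0.20 (limma adjusted p of 0.0157 and 0.0305), and these calls were lost in 4 and 6 of 12 fits that left out 1 control array (limma adjusted p up to 0.0707 and 0.132). Such calls were frequent between the lines, with 13.3% of all probes lower and 13.7% higher in BE(2)-C cells. Between 42 and 54 h in control cells, the brighter MIS18A probe of BE(2)-C cells was higher at 54 h by 0.44 (limma adjusted p = 0.0471), where 1.9% of all probes were higher and 2.26% lower. This call was lost in 11 of 12 fits that left out 1 control array of either line (limma adjusted p up to 0.495). In IMR-32 control cells, limma called 0 of 7 member probes and 0 of all 47320 probes between these times. An unadjusted p under 0.05 was reached there by 0 of 7 member probes and by 3.40% of all probes.

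Across all 36 arrays, centred within cell line, both CENPA probes correlated at r = 0.958 and both OIP5 probes at r = 0.951, while the MIS18A probes correlated at r = 0.491. The arrays share siRNAs, times and controls, so that these coefficients describe the pattern over groups and carry no p. Among 10743 genes with a detected probe, those most like the brighter CENPA probe were HMGN2, a nucleosome-binding protein (r = 0.971), HMMR, a spindle assembly factor (0.967), TRMT5, a transfer RNA methyltransferase (0.962), CDC7, a kinase of replication origins (0.955) and CNN3, an actin-binding calponin (0.955). OIP5 came at rank 11 (0.948), HJURP at rank 607 (0.782) and MIS18A at rank 2040 (0.491). The genes most like HJURP were UBE2C, an E2 enzyme of the anaphase-promoting complex (0.952), and PIMREG, a mitotic regulator (0.948), with RACGAP1 at rank 5 (0.935). In this order for HJURP, CENPA came at rank 59 by its dimmer probe (0.855). Those most like OIP5 were PABIR2 (0.970) and CCNB1, which encodes cyclin B1 (0.967), and the gene most like MIS18A was ARPC5L, a subunit of an actin-nucleating complex (0.837).

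The other genes of CENP-A deposition did not move as 1 group. Of 17 measured factors, those lower were 6 and 1 in BE(2)-C and 7 and 1 in IMR-32 (siRNA no. 1 and siRNA no. 2), and those higher were 4 and 2 in BE(2)-C and 2 and 2 in IMR-32, with list medians between -0.05 and 0.03. Over all genes, taken by their brightest probe, 11.5% and 7.54% were lower in BE(2)-C and 10.9% and 7.28% in IMR-32, and 12.9%, 6.39%, 13.3% and 6.02% were higher. RACGAP1, which acts at centromeres to maintain newly placed CENP-A and at the midzone in cytokinesis, was the listed factor that fell with both siRNAs, by 0.83 and 0.57 in BE(2)-C and by 0.94 and 0.45 in IMR-32. CUL4A, the scaffold of a ubiquitin ligase that has been tied to CENP-A deposition, rose by 0.35 and 0.31 in IMR-32. RBBP7, a histone chaperone that binds the Mis18 complex, fell by 0.32 and 0.25 with siRNA no. 1 in BE(2)-C and IMR-32 (limma adjusted p of 0.00175 and 0.00150) and was at -0.04 and 0.04 with siRNA no. 2. CENPC, which links CENP-A nucleosomes to the kinetochore, was detected on 8 of 36 arrays and passed in no comparison, with changes between -0.08 and 0.03.

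The constitutive centromere network that sits on CENP-A nucleosomes was lower for most of its genes with siRNA no. 1. Of its 17 genes, 13 and 4 were lower in BE(2)-C and 14 and 2 in IMR-32 (siRNA no. 1 and siRNA no. 2), and 0, 0, 0 and 2 were higher. Among all genes, 11.5%, 7.54%, 10.9% and 7.28% were lower and 12.9%, 6.39%, 13.3% and 6.02% higher in the same order. CENPM fell by 0.93 and 0.32 in BE(2)-C and by 1.00 and 0.22 in IMR-32, and CENPX fell by 0.59 and 0.41 in BE(2)-C cells. CENPH, with -0.65 and -0.26, and CENPP, with -0.31 and -0.34, also fell with both siRNAs in BE(2)-C cells. On a list of kinases of Mis18 licensing and of cell cycle kinases and cyclins, 7 of 7 were lower with siRNA no. 1 in both lines. After siRNA no. 2 there were 2 lower and 2 higher ones in BE(2)-C and 3 lower ones in IMR-32. The G1/S cyclin gene CCNE1 was among the lower ones in both lines. CDK1, whose activity holds back deposition until mitosis ends, fell by 0.52 and 0.45 in BE(2)-C and by 1.01 and 0.27 in IMR-32. CCNE1, the G1/S cyclin E1, fell by 0.83 and 1.34 in BE(2)-C and by 0.89 and 0.79 in IMR-32, and the mitotic cyclin gene CCNB2 fell by 0.92 and 0.29 in IMR-32. PLK1, the kinase that licenses the Mis18 complex, was lower with siRNA no. 1 by 0.28 and 0.61 in BE(2)-C and IMR-32 (limma adjusted p of 0.0173 and 1.10e-09), but higher by 0.31 with siRNA no. 2 in BE(2)-C cells (limma adjusted p = 0.00369) and at 0.05 in IMR-32 (limma adjusted p = 0.822).

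Most genes on the cell cycle lists were lower with siRNA no. 1, and fewer were lower with siRNA no. 2. Of 52 G2/M genes, 44 and 19 were lower in BE(2)-C and 48 and 30 in IMR-32 (siRNA no. 1 and siRNA no. 2), with list medians of -0.49 and -0.13 in BE(2)-C and -0.73 and -0.24 in IMR-32. Of 40 measured S phase genes, 32 and 8 were lower in BE(2)-C and 36 and 12 in IMR-32. Their list medians were -0.67 and -0.06 in BE(2)-C and -0.90 and -0.12 in IMR-32. Called higher were 0, 2, 0 and 1 of the G2/M genes and 0, 2, 0 and 0 of the S phase genes in the same order. The shares of all genes called lower were 11.5% and 7.54% in BE(2)-C and 10.9% and 7.28% in IMR-32. Those called higher were 12.9%, 6.39%, 13.3% and 6.02%. With arrays scaled to their medians, 25 G2/M genes (list median -0.21) and 12 S phase genes were lower in BE(2)-C cells after siRNA no. 2. The part of these shifts in the values of CENPA, HJURP and OIP5 was not tested. Among the G2/M genes with the largest change by both siRNAs, CDCA3 fell by 0.96 and 0.92, PIMREG by 0.76 and 0.79, UBE2C by 0.82 and 0.53 and HMMR by 1.85 and 0.50 in BE(2)-C. For IMR-32 these were KIF23, with -0.69 and -0.51, CENPE, with -0.77 and -0.49, TOP2A, with -0.73 and -0.47, and HMMR, with -1.16 and -0.42. Among the S phase genes, TYMS, at -0.82 and -0.43, and DTL, at -1.24 and -0.42, fell in BE(2)-C, and UHRF1, at -1.01 and -0.96, and GINS2, at -1.04 and -0.50, fell in IMR-32.

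Of 21 transcription factors and cofactors of G2/M genes, 8 and 2 were lower in BE(2)-C and 12 and 3 in IMR-32 (siRNA no. 1 and siRNA no. 2), and 3, 1, 4 and 1 were higher. With median scaling, 4 of these factors were lower in BE(2)-C cells after siRNA no. 2. For this list and those below, the shares over all genes were 11.5% and 7.54% lower in BE(2)-C and 10.9% and 7.28% in IMR-32. Called higher were 12.9% and 6.39% of all genes in BE(2)-C and 13.3% and 6.02% in IMR-32. FOXM1, an activator of G2/M genes that include CENPA in human cells, fell by 0.75 and 0.31 in BE(2)-C cells, while in IMR-32 it fell by 0.80 with siRNA no. 1 (limma adjusted p = 9.58e-12) and was at -0.17 with siRNA no. 2 (limma adjusted p = 0.0660). E2F2, with -1.10 and -0.37, E2F8, with -0.26 and -0.24, and MYBL2, with -0.33 and -0.22, fell with both siRNAs in IMR-32. Of 13 H3 chaperones that act outside centromeres, 8 and 5 were lower in BE(2)-C and 8 and 6 in IMR-32, and 0, 1, 0 and 0 were higher. The lists share genes, since NASP and MCM2 are counted among the S phase genes as well. PLK1 is likewise counted both among the other CENP-A deposition factors and on the list of Mis18 kinases. NASP fell by 1.09 and 0.73 in BE(2)-C and by 0.83 and 0.37 in IMR-32, and MCM2, which also binds H3 at the fork, by 0.90 and 0.60 and by 0.98 and 0.61. ASF1B fell by 0.49 and 0.42 in BE(2)-C and by 1.07 and 0.41 in IMR-32, ASF1A by 0.54 and 0.36 in BE(2)-C cells, and CHAF1B by 1.06 and 0.34 in IMR-32. Of 10 mesenchymal and fibroblast markers, siRNA no. 1 left 1 lower and 4 higher in BE(2)-C cells, and siRNA no. 2 left 3 lower and 0 higher. DCN and LUM, which encode matrix proteoglycans of fibroblasts, both rose by 1.96 with siRNA no. 1, whereas CD44 fell by 0.56 and 0.28. With siRNA no. 2 in BE(2)-C cells, the highest change of any marker on this list was 0.08. In IMR-32, 2 were higher with siRNA no. 1 and 0 with siRNA no. 2, and 0 were lower with either. Of 8 measured adrenergic markers, 3 were higher with each siRNA in BE(2)-C cells, DBH among them by 0.63 and 0.68, and 3 and 2 in IMR-32, where 1 was lower with siRNA no. 2. The part of these markers in the values of CENPA and its loading factors was not tested.

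**Figure D5:**
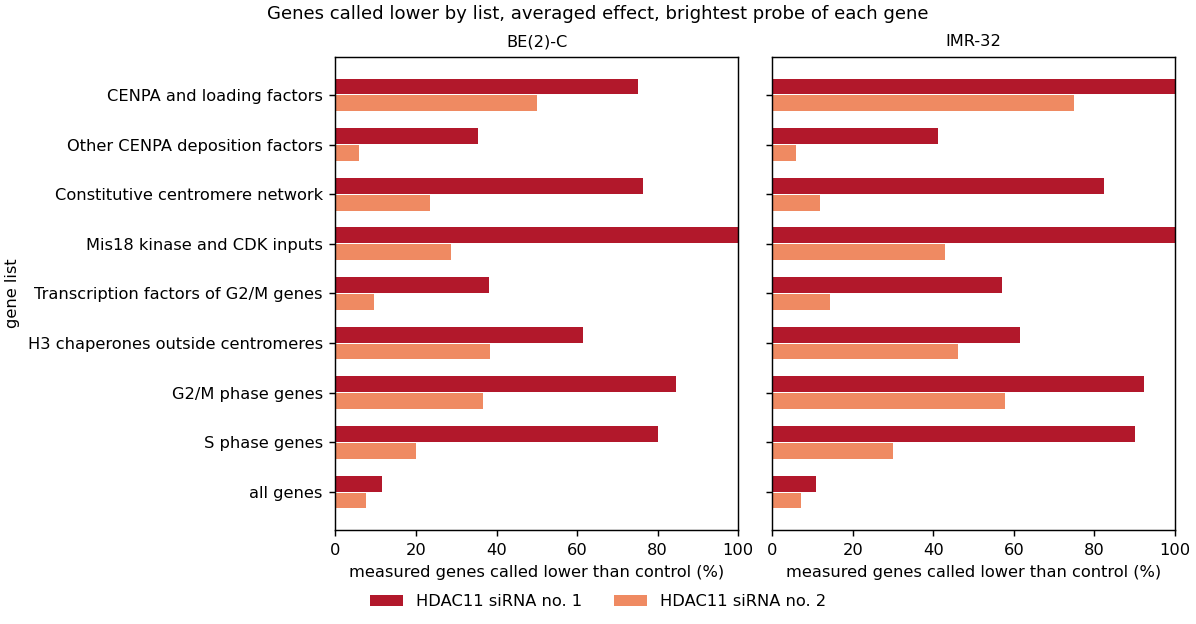
Share of the measured genes of each list that were called lower than control (x axis, percent), for HDAC11 siRNA no. 1 and no. 2 in BE(2)-C and IMR-32, with each gene taken by its brightest probe and the share over all genes as the last row. The lists of G2/M genes, with 44 and 48 of 52 genes lower with siRNA no. 1 in BE(2)-C and IMR-32, have longer bars than the other CENP-A deposition factors, with 6 and 7 of 17.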

How the data were processed

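RNA of the 36 cultures was hybridised to Illumina HumanHT-12 v4 bead arrays. The authors extracted beads one by one, removed outlying beads and averaged the rest per probe, and the deposited table holds these averages as intensity values on a linear scale without background subtraction or normalisation. Beside each of them stands a deposited detection p-value. Neither the scanner software nor the test behind this p is named in the labels or methods used here. The authors' normalised series matrix served only as an alternative.

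Of 47323 probes, 3 with blank or zero cells were left out. Intensities of all 36 arrays were quantile-normalised and log2-transformed, without background correction or filter. A probe counted as detected with a detection p under 0.01 and a signal above the background centre, the median of probes with a detection p over 0.98 (95.3 to 122 per array). Genes were named through the platform annotation and RefSeq. Fold changes of dim probes are compressed towards 0, and the number of arrays limits the precision.

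Each HDAC11 siRNA was compared with the negative control by limma 3.58.1 (R 4.3.3) over 12 arrays of a cell line with 6 residual degrees of freedom, per time and averaged. The siRNAs, the cell lines and the control cells were compared by contrasts of the same kind. P-values were adjusted over 47320 probes by Benjamini-Hochberg, with a threshold of 0.05. Plots were made by Python 3.11.15 with matplotlib 3.10.9. The fits were tested on simulated data.

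The members and gene lists were chosen with earlier results of these data known. Named besides the members were HDAC11, CENPC, RBBP7, PLK1 and FOXM1, up to 4 genes per list with the largest smaller change among those passing with both siRNAs, and the 5 genes most like CENPA. Genes most like the other members were counted by the same rule and a few named after their values were seen, as were OIP5-AS1, DCN and LUM. The labels used here do not say whether replicate numbers mark a shared day or batch. Deviations of same-numbered arrays correlated at r = -0.05 to 0.22, with 6 of 18 pairs over 0.1. Of these, 5 lay between siRNA no. 1 and the negative control, at r = 0.19, 0.10 and 0.19 at the 3 times in BE(2)-C cells. The alternatives were other normalisations, a background correction, a filter, a trend prior, replicate blocks, the fit over all arrays of a line, a threshold of 0.01 and leaving out each array.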

Additional observations from a re-analysis of the deposited data

Results flagged for a closer look

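The change of 3 members after HDAC11 siRNA no. 1 differed between the cell lines by the test of the difference itself, taken as the averaged log2 effect in BE(2)-C minus that in IMR-32. For the brighter CENPA probe the difference was -0.77 (limma adjusted p = 8.68e-05), with averaged changes of -2.11 in BE(2)-C and -1.34 in IMR-32. For HJURP it was 0.44 (limma adjusted p = 0.00153), with changes of -0.55 in BE(2)-C and -0.98 in IMR-32. For the brighter MIS18A probe it was 0.46 (limma adjusted p = 0.00159), with changes of -0.10 in BE(2)-C and -0.55 in IMR-32. Over all alternatives the CENPA difference lay between -0.90 and -0.64, that of HJURP between 0.39 and 0.48 and that of MIS18A between 0.39 and 0.53, and all of them passed. The dimmer probes of CENPA and MIS18A gave -0.25 and 0.26 and did not pass. No cause of these differences was tested.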

How the results depend on the processing

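No member value past the threshold changed its direction under any alternative. Of 4438 values for single probes under an alternative, 4265 kept their side of the threshold, 139 were no longer past it and 34 newly passed. With the replicate block within each time point 165 of 168 values kept their call and with the replicate block over all times 186 of 189, with no call of siRNA no. 1 changed by either block. The brighter OIP5 probe newly passed with siRNA no. 2 in BE(2)-C cells under the block over all times (limma adjusted p = 0.0490). Averaged calls in BE(2)-C cells with siRNA no. 2 were 5 of 7 in place of 3 with median scaling and 3 to 5 when 1 array was left out, the highest count without the control array of replicate 2 at 54 h. Calls per probe and time with siRNA no. 2 were 8 of 21 in BE(2)-C cells, but 3 at a threshold of 0.01, 4 with normexp background correction and 4 to 7 without 1 array. In IMR-32 cells they were 7, but 2 at 0.01, 4 in the fit of all 18 arrays, 4 with median scaling, 2 with normexp, 11 among detected probes alone and 4 to 6 without 1 array. By the rule for both siRNAs, 2 probes passed in BE(2)-C cells, but 1 at 0.01 and 1 with normexp. In IMR-32 cells it was 2, but 0 at 0.01, 0 with median scaling, 0 with normexp, 1 in the fit of all 18 arrays, 4 among detected probes and 1 to 2 without 1 array. Between control cells of both lines, 5 of 7 probes passed and 3 at 0.01. The single call between 54 and 42 h in BE(2)-C control cells gave 0 at 0.01, with the trend prior, median scaling, normexp and the series matrix, and 0 to 2 without 1 array. The cell line difference for siRNA no. 1 had 3 calls and 3 to 5 without 1 array, the dimmer CENPA probe at -0.32 (limma adjusted p = 0.0194) and the brighter OIP5 probe at -0.29 (limma adjusted p = 0.0394) also passing without the IMR-32 array of siRNA no. 1, replicate 1, at 42 h. For the change of the siRNA no. 2 effect in BE(2)-C cells between 42 and 54 h, 0 to 1 probes passed without 1 array. The cause of these shifts was not tested. Scaling to medians moved the split of all calls in BE(2)-C cells with siRNA no. 2 to 2929 lower and 1042 higher, against 2165 and 2007, and in IMR-32 cells to 2297 and 1038, against 2064 and 1813. Between control lines it gave 7117 lower and 4836 higher, and normalisation within each line 7939 and 4941, against 6286 and 6501. The HJURP difference between control lines then lost its call, at 0.17 with median scaling (limma adjusted p = 0.0742) and 0.15 with normalisation within each line (limma adjusted p = 0.0805). A block by chip was not run, since the headers name no chip, and the block within a time point could not be fitted to control arrays alone. Signals near the background limit HDAC11, CENPC and the dimmer CENPA and MIS18A probes. After siRNA no. 1 they also limit the brighter CENPA probe in BE(2)-C (median 225) and the dimmer OIP5 probe in IMR-32 (median 212).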
